A study of Mus musculus with 6 samples.

Results

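Integrins are the receptors by which macrophages hold on to matrix and to other cells, and 34 genes of that machinery were followed in macrophages grown from mouse bone marrow and then given the medium of apoptotic chondrocytes (AC CM, 3 samples) or medium of normal chondrocytes (C CM, 3 samples). The 34 were taken by symbol from the 52550 genes of the deposited table: 18 alpha and 8 beta integrin subunits, 5 talins and kindlins, and the adaptors vinculin, integrin-linked kinase and paxillin. The symbol Itgam occurred in 2 entries, and the entry with more counts was kept. All 6 samples came from C57BL/6 marrow cells cultured with macrophage colony-stimulating factor (M-CSF) at 25 ng/ml for 7 days, and per the labels the groups differ in the chondrocyte medium. The agent that made chondrocytes apoptotic, the length of exposure and the age or number of animals are not given in the labels. Where the samples of a group are not from separate cultures or animals, the p-values measure only technical spread.

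An integrin is a pair of one alpha and one beta chain. The alpha chain largely sets the ligand, and several alpha chains share a beta chain. Talins and kindlins bind the beta tail from inside the cell and switch the receptor to its active form, and vinculin, paxillin and integrin-linked kinase tie it to actin. Macrophages are known for the beta2 integrins of leukocytes, for fibronectin receptors of the beta1 type and for the vitronectin receptors alphav-beta3 and alphav-beta5.

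Library totals lay between 65630784 and 80105872 counts. Values are CPM, counts scaled to library size by the TMM method and to a total of 1e+06, and values after ± are SD over n = 3. A gene was called at a Benjamini-Hochberg adjusted p under 0.05 in edgeR's quasi-likelihood test, adjusted over the 17863 genes tested. Log2 fold changes set AC CM over C CM, so that a negative one is a lower level after AC CM, and SE is the standard error. The macrophage genes Adgre1 and Cd68 averaged 1967 ± 27.8 and 1319 ± 24.7 CPM after AC CM, against 2248 ± 231 and 1189 ± 94.3 CPM after C CM. Of 12 macrophage genes 1 rose (Mrc1), 4 fell and 7 did not pass. Genes of other cell types were detected too. Fibroblast genes summed to 3232 to 3326 CPM after AC CM and 4033 to 5072 CPM after C CM, led by Col1a1 with 1341 ± 21.6 CPM after AC CM and 1916 ± 305 CPM after C CM. Over 9 hepatocyte genes other than Trf, the summed level was 47.1, 578 and 1318 CPM in AC CM replicates 1, 2 and 3, against 42.4, 1.62 and 0.478 CPM in C CM replicates 1, 2 and 3. With Trf included, the sums were 351, 927 and 1724 CPM after AC CM and 595, 535 and 516 CPM after C CM. Of the 9 tested genes in this list of 10, 0 rose, 1 fell and 8 did not pass.

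RefSeq (GRCm38.p6) held 27 promoter windows for 24 of the 34 genes, Itgad and Itgb3 not among them. Shown are those of Itga2b, Itga8 and Itgax, the 3 genes with a window whose levels differed most between the groups, and of Itgav, another gene that was higher after AC CM. Each window runs from 250 bases before to 50 bases after a start site. Capitals mark matches, on either strand, to any of GAGGAA (a PU.1-type ETS core), CCGGAA (ETS), AGATAA (read by GATA factors), TGANTCA (AP-1, N being any base), GGGCGG (SP1), TGTGGT (RUNX), CACGTG (the E-box) and TATAAA (a core promoter element).
Itgax (chr7:128129300-128129599, plus strand): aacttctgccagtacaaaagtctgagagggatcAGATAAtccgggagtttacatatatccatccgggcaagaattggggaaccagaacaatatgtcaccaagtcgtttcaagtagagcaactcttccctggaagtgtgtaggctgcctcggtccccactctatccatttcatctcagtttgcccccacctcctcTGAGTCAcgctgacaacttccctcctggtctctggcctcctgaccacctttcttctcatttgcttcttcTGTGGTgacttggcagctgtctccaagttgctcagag
Itga2b (chr11:102469834-102470133, minus strand): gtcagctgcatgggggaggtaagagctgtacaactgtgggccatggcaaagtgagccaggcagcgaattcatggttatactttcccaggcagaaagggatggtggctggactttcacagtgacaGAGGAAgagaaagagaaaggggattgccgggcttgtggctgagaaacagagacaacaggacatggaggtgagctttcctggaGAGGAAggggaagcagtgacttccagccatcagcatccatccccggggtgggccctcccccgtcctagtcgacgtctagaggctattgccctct
Itga8 (chr2:12301895-12302194, minus strand): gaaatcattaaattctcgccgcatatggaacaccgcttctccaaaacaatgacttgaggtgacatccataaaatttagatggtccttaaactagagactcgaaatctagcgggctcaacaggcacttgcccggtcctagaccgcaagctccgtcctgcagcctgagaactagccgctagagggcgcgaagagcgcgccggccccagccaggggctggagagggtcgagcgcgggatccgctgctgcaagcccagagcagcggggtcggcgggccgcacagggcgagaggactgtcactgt
Itgav (chr2:83724147-83724446, plus strand): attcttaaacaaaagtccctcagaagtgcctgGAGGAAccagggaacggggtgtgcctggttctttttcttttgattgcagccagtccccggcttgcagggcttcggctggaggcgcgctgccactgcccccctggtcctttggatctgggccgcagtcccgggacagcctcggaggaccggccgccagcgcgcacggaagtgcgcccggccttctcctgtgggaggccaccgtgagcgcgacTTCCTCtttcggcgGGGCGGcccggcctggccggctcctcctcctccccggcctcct
The Itga2b window held 2 matches to GAGGAA, at 126 and 44 bases before the start site. Itgav also had 2 matches to it, 1 of them on the opposite strand, and 1 match to GGGCGG. The Itgax window held 1 match each for GATA factors, AP-1 and RUNX, and the Itga8 window held none of the 8 motifs. Of all 32851 promoter windows, 28.3% held GAGGAA, 35.7% held GGGCGG, 7.81% held TGANTCA, 11.2% held AGATAA and 16.8% held TGTGGT. Among the 27 windows of these genes, 10, 13, 3, 1 and 6 did. No match overlapped another in the 4 windows shown, and a match is only a description of letters.

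Of the 34 genes, 32 had counts enough to be tested. After AC CM 12 of them fell, 4 rose and 16 did not pass, so that 16 of 32 were called, against 26.5% of all genes tested. Lower calls made up 37.5% of the genes tested, against 13.3% of all genes tested, and higher calls made up 12.5%, also against 13.3%. The 4 genes that rose were Itgb1 and the alpha chains Itga5, Itgav and Itga8, which all pair with beta1 and bind the RGD motif of fibronectin and related ligands. The deepest falls were in Itga2b, Itgad, Itgax and Itgb3. The calls lay almost wholly in the receptor chains, with 15 of 25 tested subunits called, while of 7 tested talin, kindlin and adaptor genes paxillin alone was called. Among genes with at least 1 CPM in 3 samples the called share was 57.1% of these genes (16 of 28) and 31.9% of all 13999. The libraries of the groups did not overlap for 22 of the 32, against 44.7% of all genes tested. Higher after AC CM without overlap were 4 of the 32, against 22.6% of all genes tested. Lower without overlap were 18 of the 32, against 22.1% of all genes tested. By this count 17 of the 25 subunits and 5 of the 7 talin, kindlin and adaptor genes did not overlap, the latter 5 all lower after AC CM. The median log2 fold change was -0.23 over the 32 genes, -0.52 over the 25 subunits, -0.16 over the 7 other genes and -0.0046 over all genes tested. In the authors' deposited table the same 16 genes were called, in the same directions.

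**Figure D1:**
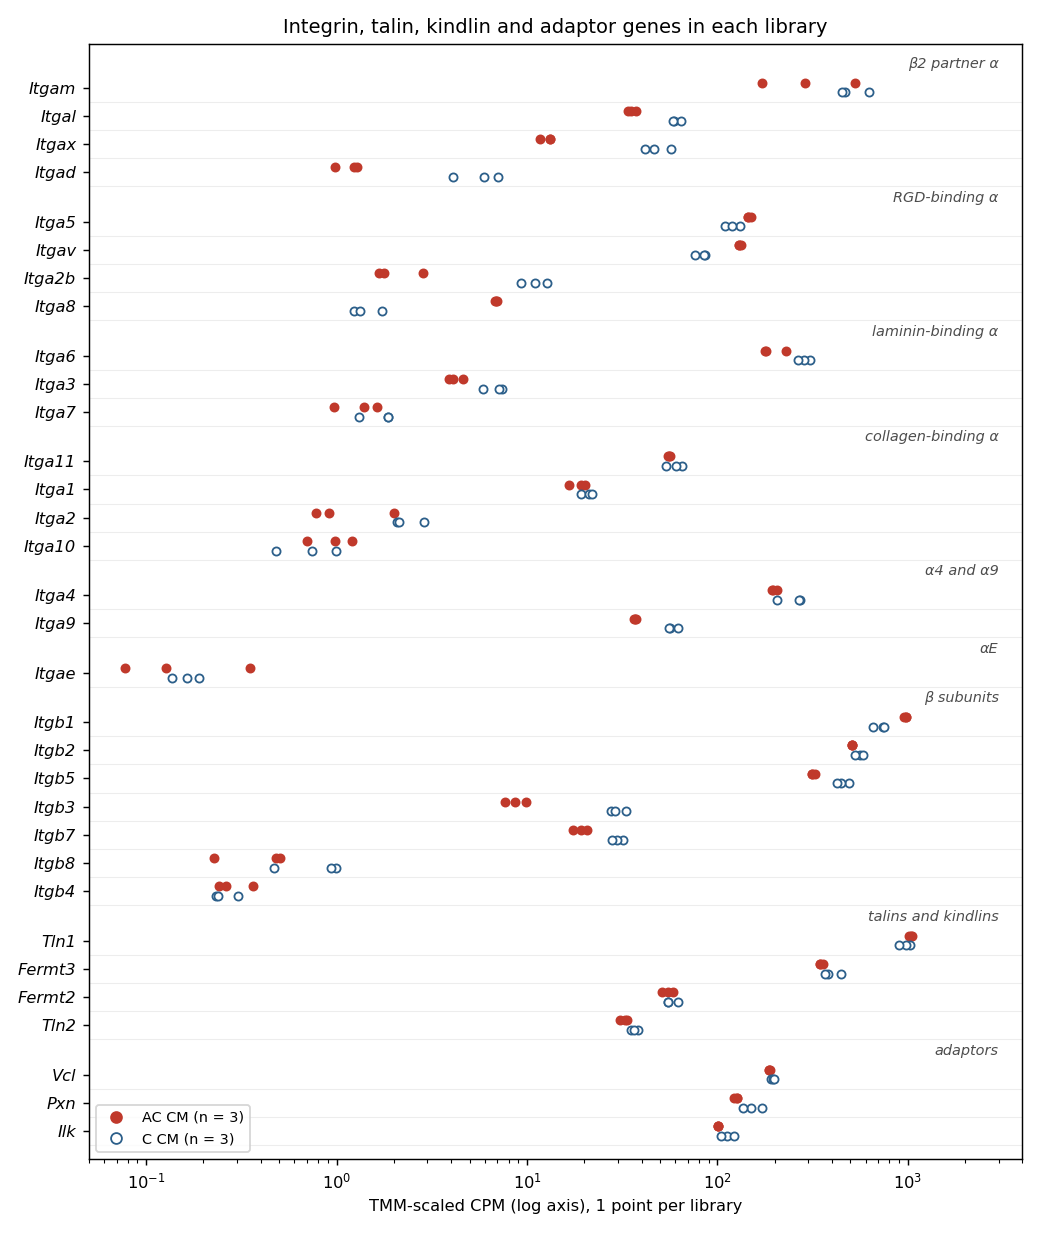
CPM of the 32 tested genes on a log axis, with 1 point for each library, AC CM filled and set above C CM open. Itgax, Itgad, Itga2b and Itgb3 lie well to the left after AC CM, and Itga8 and Itgav to the right, while the points of Tln1, Fermt2 and Itga11 overlap.

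**Figure D2:**
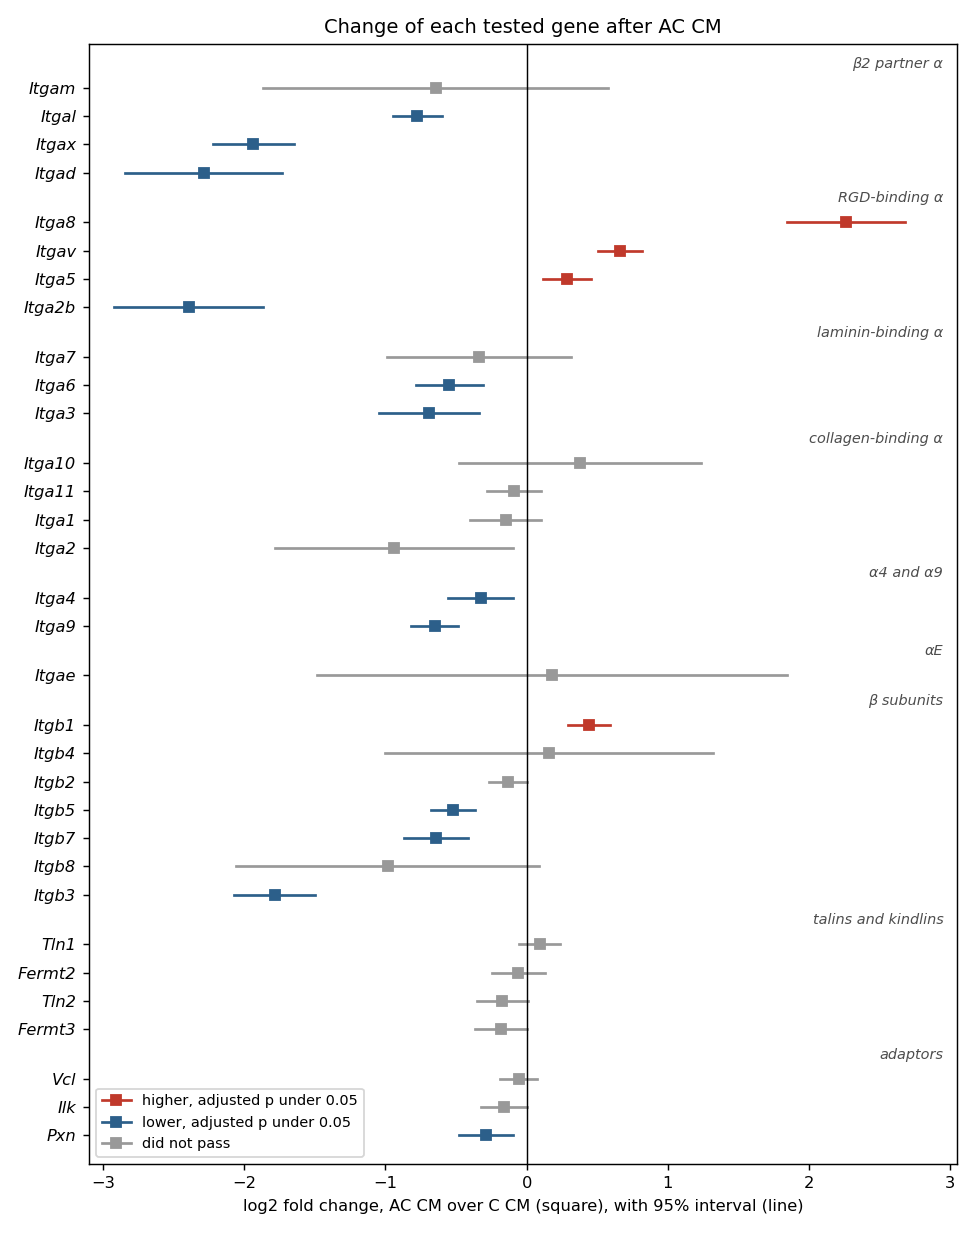
Log2 fold change of each tested gene, AC CM over C CM, with its 95% interval as a line, grouped by the ligand class of the alpha chain or by role. The 4 genes that rose are Itga8, Itgav, Itga5 and Itgb1, and the line of Itgam is the widest among the beta2 partners.

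The leukocyte alpha chains that pair with beta2 lie in a cluster on chromosome 7. Itgax encodes CD11c, the alpha chain that marks dendritic cells and some macrophages (ENSMUSG00000030789.9, 128129547 to 128150657, plus strand). It had 13.2, 13.1 and 11.7 CPM in AC CM replicates 1, 2 and 3, against 41.8, 57.2 and 46.6 CPM in C CM replicates 1, 2 and 3. Every AC CM library was below every C CM library, and Itgax fell by 1.94 on the log2 scale (SE 0.13, adjusted p = 1.62e-05). Its neighbour Itgad, the alpha chain CD11d (128154376 to 128223816), had 1.28, 0.983 and 1.23 CPM after AC CM and 7.00, 4.06 and 5.97 CPM after C CM. The groups again did not overlap, and Itgad fell by 2.29 on the log2 scale (SE 0.25, adjusted p = 0.000234). Itgad shares 330 exon bases with Gm17831 on the same strand and others with small genes on the opposite strand, and whether counting used strand is not given in the sources used here. Itgal encodes the alpha chain of LFA-1, the receptor for ICAM-1 (127296260 to 127335138). It was at 35.2, 37.5 and 33.8 CPM after AC CM and at 59.1, 64.3 and 58.7 CPM after C CM. Without overlap, Itgal fell by 0.77 on the log2 scale (SE 0.08, adjusted p = 0.000159). Fewer cells of a type and less RNA per cell cannot be told apart in such bulk libraries.

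Markers of other blood cells that carry these integrins were read beside them. Of 11 tested dendritic cell genes, with Itgax not among them, 9 fell and 2 did not pass. Their summed level, with 1 untested gene, was 85.9 to 112 CPM after AC CM and 461 to 593 CPM after C CM. Most of each sum came from Fscn1, H2-Aa and Cd74, with Fscn1 alone at 51.8 to 76.5 CPM after AC CM and 76.7 to 127 CPM after C CM. No other gene of the list averaged above 5.55 CPM in either group, the level of Dpp4 after C CM. Of 11 tested neutrophil genes 10 fell, with sums of 189 to 205 CPM after AC CM and 867 to 1016 CPM after C CM. Among 8 monocyte genes there were 4 falls and 4 that missed the threshold, with sums of 1346 to 1393 CPM after AC CM and 1773 to 1969 CPM after C CM. Fn1, which did not pass, gave 801 to 901 CPM of these sums after AC CM and 918 to 973 CPM after C CM. Of 8 tested lymphocyte genes 7 fell, with sums of 1.72 to 2.11 CPM after AC CM and 9.73 to 10.8 CPM after C CM. No listed gene of these types was at 0 in every library. The part of these cells in the levels of the beta2 partners was not tested.

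Itgam, the alpha chain CD11b of the macrophage receptor Mac-1, stood out by how its reads were divided. Its kept entry (ENSMUSG00000030786.18, 128062640 to 128118491, plus strand) held 20437, 13237 and 41892 counts after AC CM, against 30738, 42619 and 30203 counts after C CM, by replicate number. That entry overlapped between groups and did not pass (log2 fold change -0.64, SE 0.46, adjusted p = 0.384). A second entry with the same symbol (ENSMUSG00000108596.1, 128062683 to 128128160, same strand) had 16751, 28425 and 1 counts after AC CM and 20514, 20951 and 24781 counts after C CM. GENCODE release M21 names this second gene Gm49368 and calls both genes protein coding, and they share 3450 exon bases, 68.7% of those of the first and 71.8% of those of the second. The second entry took 45.0%, 68.2% and 0.00239% of the summed counts in the AC CM libraries, and 40.0%, 33.0% and 45.1% in the C CM libraries.

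Summed over both entries, Itgam was even within each group. It had 528, 539 and 525 CPM in AC CM replicates 1, 2 and 3, against 782, 929 and 821 CPM in C CM replicates 1, 2 and 3. With the sum in place of the 2 entries, Itgam fell by 0.67 on the log2 scale (SE 0.07, adjusted p = 0.00025), 1.59-fold lower after AC CM. This sum was added after the data were seen, and raised the count of falling genes to 13. It stayed called without any 1 library, at log2 fold changes of -0.72 to -0.60 and adjusted p of 7.21e-05 to 0.00261. The kept entry alone was called without AC CM replicate 3, at -1.16 (adjusted p = 0.0428), and without both AC CM replicates 2 and 3, at -0.83 (adjusted p = 0.0444).

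**Figure D3:**
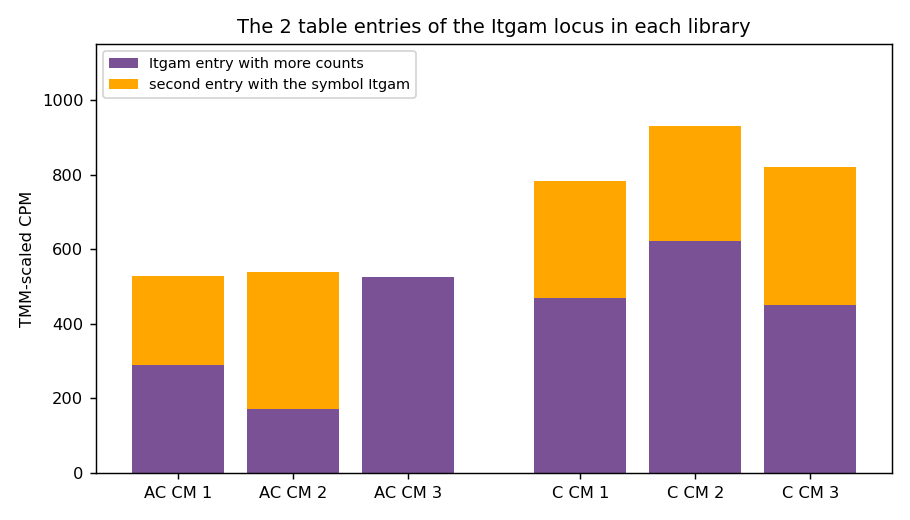
TMM-scaled CPM of the 2 table entries with the symbol Itgam, stacked, in each library. The split between entries differs from library to library and the second entry is almost missing in AC CM replicate 3, but the summed height is 525 to 539 in the AC CM libraries and 782 to 929 in the C CM libraries.

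Itgb2, the common beta chain of these receptors (CD18), had 510, 511 and 507 CPM after AC CM and 562, 583 and 527 CPM after C CM. The AC CM libraries were all lower but the difference did not pass (log2 fold change -0.13, 95% interval -0.27 to 0.005, adjusted p = 0.144). Per kilobase of exon, and with Itgam summed, Itgam made up 90.9% ± 0.315 of the beta2 partner alpha transcripts after AC CM and 86.5% ± 0.0888 after C CM. Itgax took 2.88% ± 0.161 of them after AC CM and 6.58% ± 0.470 after C CM, and no library of one group overlapped the other for either share. Itgal held 5.90% ± 0.212 after AC CM and 6.06% ± 0.269 after C CM, where the libraries overlapped. With the kept Itgam entry alone, the Itgam share was 87.3%, 79.7% and 93.0% after AC CM. It was 82.9%, 84.6% and 81.8% after C CM, so that the libraries overlapped.

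The RGD-binding alpha chains went the other way, apart from Itga2b. Itga8, which pairs with beta1 and is best known from kidney and smooth muscle (ENSMUSG00000026768.10, chromosome 2, 12106632 to 12301922, minus strand), had 6.83, 6.84 and 6.97 CPM in AC CM replicates 1, 2 and 3, against 1.24, 1.74 and 1.33 CPM in C CM replicates 1, 2 and 3. It rose by 2.26 on the log2 scale (SE 0.18, adjusted p = 5.11e-05), 4.79-fold, and remained one of the scarcer chains. Itgav, the alpha chain of the vitronectin receptors (chromosome 2, 83724397 to 83806916, plus strand), had 129, 129 and 133 CPM after AC CM and 76.2, 85.8 and 85.5 CPM after C CM. Its groups lay well apart, and it rose by 0.66 (SE 0.07, adjusted p = 0.000207). Itga5, the alpha chain of the main fibronectin receptor, had 149, 145 and 145 CPM after AC CM and 132, 110 and 119 CPM after C CM. Itga5 rose by a smaller 0.28 (SE 0.08, adjusted p = 0.0236). It was also called without C CM replicate 1, but the call was lost without any 1 of the other 5 libraries, at adjusted p of 0.0675 to 0.0957, and without both AC CM replicates 2 and 3 (adjusted p = 0.285). Itga8 and Itgav share 372 and 634 exon bases with E030013I19Rik and Gm13684 on the opposite strand.

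Itga2b, the platelet alphaIIb chain (ENSMUSG00000034664.13, chromosome 11, 102453297 to 102470122, minus strand), had 117, 138 and 226 counts after AC CM and 721, 873 and 622 counts after C CM, or 0.384 ± 0.118 and 2.02 ± 0.319 CPM per kb of exon. It fell by 2.39 on the log2 scale (SE 0.23, adjusted p = 0.000135), 5.25-fold. Its partner Itgb3, which also pairs with alphav on osteoclasts and macrophages (chromosome 11, 104608000 to 104670476, plus strand), had 9.82, 7.63 and 8.63 CPM after AC CM and 27.8, 33.1 and 29.0 CPM after C CM. The groups of both genes lay far apart, and Itgb3 fell by 1.78 (SE 0.13, adjusted p = 2.68e-05). Of 10 megakaryocyte and platelet genes 6 fell, 2 rose (Pf4 and Treml1) and 2 did not pass. Their summed level, of which Pf4 is the greater part, was 489 to 523 CPM after AC CM and 314 to 380 CPM after C CM. Of 7 tested osteoclast genes 5 fell and 2 did not pass, the sum was 189 to 192 CPM after AC CM and 288 to 328 CPM after C CM, and Calcr was at 0 in every library. Of 4 tested mast cell and basophil genes 2 fell, with sums of 3.63 to 4.85 CPM after AC CM and 14.5 to 17.2 CPM after C CM and Fcer1a at 0 throughout. The part of such cells in the fall of Itga2b and Itgb3 was not tested.

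Itgb1, the most widely shared beta chain (ENSMUSG00000025809.15, chromosome 8, 128685654 to 128733200, plus strand), had 977, 954 and 980 CPM in AC CM replicates 1, 2 and 3, against 656, 738 and 752 CPM in C CM replicates 1, 2 and 3. It rose by 0.44 on the log2 scale (SE 0.07, adjusted p = 0.00146) without overlap. Without both AC CM replicates 2 and 3, in a fit that lets the remaining AC CM library vary like the C CM libraries, its value was 0.45 and the call was lost (adjusted p = 0.0861). Itgb5, the other abundant partner of alphav, had 312, 324 and 314 CPM after AC CM and 491, 445 and 425 CPM after C CM. It fell by 0.52 (SE 0.07, adjusted p = 0.000751). Itgb7, which pairs with alpha4 and alphaE on lymphocytes and mast cells, averaged 19.1 ± 1.62 CPM after AC CM and 29.9 ± 1.99 CPM after C CM and fell by 0.64 (SE 0.10, adjusted p = 0.00186). Neither was called without both AC CM replicates 2 and 3, at -0.54 (adjusted p = 0.062) and -0.54 (adjusted p = 0.122). Itgb8 and Itgb4 were at 0.402 ± 0.152 and 0.289 ± 0.0643 CPM after AC CM, against 0.800 ± 0.289 and 0.259 ± 0.0397 CPM after C CM, and did not pass (adjusted p = 0.162 and 0.858). Itgb6, an epithelial chain, had 5 counts in AC CM replicate 2 and 0 in the other 5 libraries and was not tested.

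Itgb1, Itgb2 and Itgb5 were the most abundant beta chains in both groups. Per kilobase of exon, Itgb1 reached 238 ± 3.55 CPM per kb after AC CM, above Itgb2 with 167 ± 0.767 and Itgb5 with 89.1 ± 1.82 CPM per kb. After C CM, Itgb2 (183 ± 9.19) and Itgb1 (175 ± 12.7 CPM per kb) were within their spread of each other, followed by Itgb5 at 128 ± 9.66. As a share of the beta transcripts, Itgb1 was 47.3% ± 0.534 after AC CM and 35.0% ± 2.66 after C CM. Itgb5 was 17.7% ± 0.433 after AC CM and 25.5% ± 1.93 after C CM, and Itgb2 33.2% ± 0.239 after AC CM and 36.4% ± 1.10 after C CM. The libraries of the groups did not overlap for any of these 3 shares. Among the alpha chains, with Itgam summed, Itgam led with 44.2% ± 1.03 after AC CM and 51.1% ± 1.98 after C CM. Itga5 was next after AC CM, at 15.8% ± 0.461, but stood at 9.46% ± 1.29 after C CM, below Itga6, which was at 11.5% ± 1.51 after AC CM and 12.2% ± 1.19 after C CM. Itgav took 6.45% ± 0.0235 after AC CM and 2.97% ± 0.166 after C CM. All these shares are per kilobase of exon, and the order of genes depends on that scaling. By CPM without length, Itga5 at 146 ± 2.51 after AC CM lay below Itga4 (198 ± 6.09) and Itga6 (195 ± 28.6). Shares of one pool move with each other, and they are given as a description with no test.

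**Figure D4:**
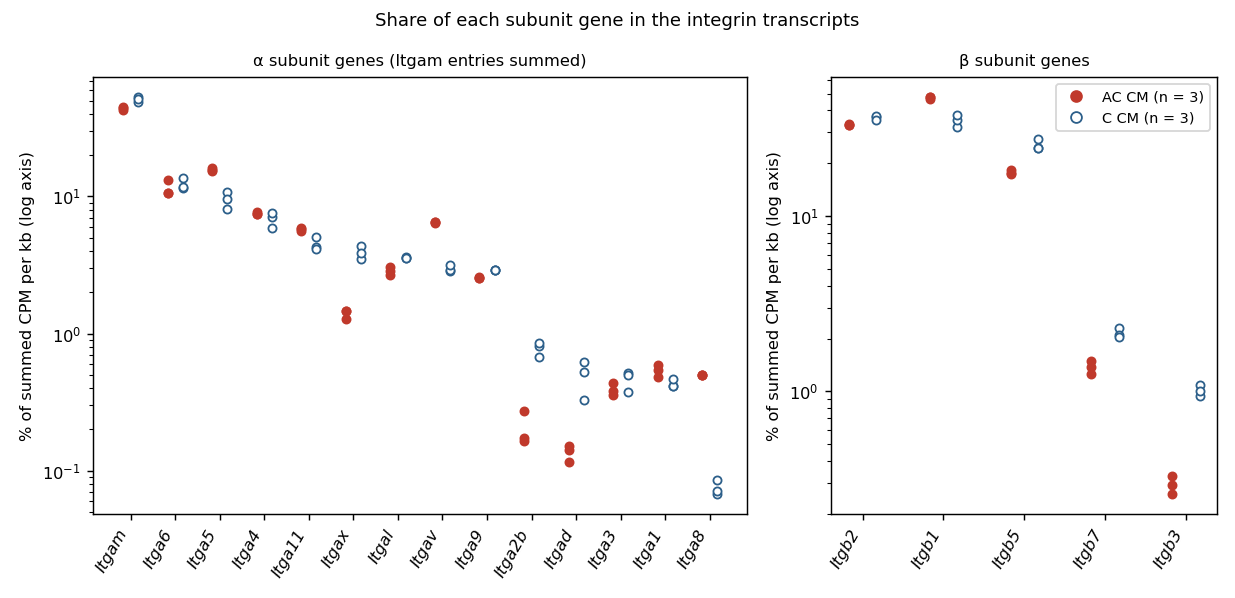
Share of each subunit gene in the summed CPM per kilobase of exon of the alpha genes (left) and beta genes (right), on log axes, with 1 point for each library; genes under 0.3% in both groups are not drawn. Itgb1 lies at 47.3% of the beta transcripts after AC CM and 35.0% after C CM, and Itgav and Itga8 are higher after AC CM while Itgax, Itga2b and Itgb3 are lower.

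Of 24 known pairs of alpha and beta chains, both genes rose in 3 (Itga5, Itgav and Itga8 with Itgb1) and both fell in 2 (Itga2b with Itgb3, Itga4 with Itgb7). In 4 pairs the alpha chain fell while Itgb1 rose, and in 2 Itgav rose while its beta chain, Itgb3 or Itgb5, fell. Messenger levels do not say how much of any pair reached the surface.

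Of the 5 laminin-binding, alpha4 and alpha9 chains 4 fell. Itga6, the main laminin-binding chain here, had 178, 180 and 228 CPM after AC CM and 307, 283 and 266 CPM after C CM. It fell by 0.55 on the log2 scale (SE 0.11, adjusted p = 0.00511), with AC CM replicate 3 nearest to the C CM libraries. Itga3, another laminin receptor, averaged 4.20 ± 0.380 CPM after AC CM and 6.79 ± 0.813 CPM after C CM and fell by 0.69 (SE 0.16, adjusted p = 0.011). Without AC CM replicate 3 that call was lost (-0.64, adjusted p = 0.0527), as it was without both AC CM replicates 2 and 3 (-0.56, adjusted p = 0.284). Itga7 did not pass (-0.33, adjusted p = 0.438). Itga9, a receptor for tenascin and osteopontin, had 36.4, 37.1 and 37.2 CPM after AC CM and 56.2, 61.8 and 55.9 CPM after C CM, and fell by 0.65 (SE 0.07, adjusted p = 0.000311). Itga4, the alpha chain of VLA-4 that binds VCAM-1 and fibronectin, had 194, 196 and 205 CPM after AC CM and 207, 271 and 268 CPM after C CM. Its call (-0.33, SE 0.10, adjusted p = 0.0441) held without C CM replicate 1, the C CM library nearest to the AC CM libraries. It was lost without any 1 of the other 5 libraries (adjusted p of 0.0919 to 0.139) and without both AC CM replicates 2 and 3 (adjusted p = 0.288). Itga4 also shares 1124 exon bases with Cerkl on the opposite strand.

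No collagen-binding chain passed. Itga11, known as a receptor of fibroblasts and other stromal cells, was at 56.7, 55.9 and 55.1 CPM after AC CM and at 64.9, 60.3 and 53.5 CPM after C CM (log2 fold change -0.09, 95% interval -0.28 to 0.10, adjusted p = 0.475). The groups overlapped, and Itga11 ranked 14 of 34 per kilobase after AC CM and 13 after C CM. Of the 8 fibroblast genes whose sums are given above 6 fell and 2 did not pass. Of 6 tested chondrocyte genes Col11a1 rose and 5 did not pass. Their sums, with 3 untested genes (Acan, Hapln1 and Col9a1), were 108 to 111 CPM after AC CM and 72.1 to 84.1 CPM after C CM. Most of each sum came from Col11a1 and Col2a1, at 62.5 and 43.7 CPM on average after AC CM, against 35.6 and 38.3 CPM after C CM. No other chondrocyte gene of the list averaged above 1.64 CPM in either group, the level of Sox9 after C CM. No listed fibroblast or chondrocyte gene was at 0 in every library. The part of stromal cells in the Itga11 level was not tested. The log2 fold changes of Itga1 and Itga10 were -0.15 (95% interval -0.40 to 0.10) and 0.38 (95% interval -0.48 to 1.24), and both share exon bases with another gene of the same strand. Itga2 had 0.908, 0.776 and 1.99 CPM after AC CM and 2.07, 2.88 and 2.12 CPM after C CM. It did not pass (-0.94, adjusted p = 0.0957) but did without AC CM replicate 3 (-1.48, adjusted p = 0.0129). Itgae, the alpha chain of resident lymphocytes and some dendritic cells, was at 0.186 ± 0.146 CPM after AC CM and 0.164 ± 0.0264 CPM after C CM, near the limit of detection at this depth (adjusted p = 0.887).

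No talin or kindlin gene passed. Tln1, the talin of blood cells, had 1020, 1049 and 1044 CPM after AC CM and 1031, 983 and 902 CPM after C CM. The groups overlapped (log2 fold change 0.09, 95% interval -0.05 to 0.24, adjusted p = 0.322), although Tln1 passed without C CM replicate 1 (0.14, adjusted p = 0.0427). Fermt3, the kindlin of blood cells, had 346, 360 and 346 CPM after AC CM and 446, 380 and 367 CPM after C CM. It did not pass (-0.18, 95% interval -0.36 to 0.0005, adjusted p = 0.132), although every AC CM library was below every C CM library. Fermt2 and Tln2, the forms best known outside blood, averaged 55.0 ± 3.54 and 32.4 ± 1.43 CPM after AC CM, against 57.3 ± 4.10 and 36.5 ± 1.52 CPM after C CM (adjusted p = 0.655 and 0.145). The groups overlapped for Fermt2, while for Tln2 every AC CM library was lower. Fermt1, the epithelial kindlin, had 0 counts in all 6 libraries, which allows at most 3 counts, or 0.0457 CPM before TMM scaling, in the shallowest one, for counting error only. Per kilobase, Tln1 stood at 106 ± 1.60 after AC CM and 99.2 ± 6.67 CPM per kb after C CM, below Itgb1 and Itgb2 in both groups.

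Pxn, which encodes the scaffold paxillin, had 127, 123 and 126 CPM after AC CM and 171, 150 and 137 CPM after C CM. Pxn fell by 0.29 on the log2 scale (SE 0.09, adjusted p = 0.0354). The call was lost without C CM replicate 2 or any 1 AC CM library, at adjusted p of 0.0788 to 0.127, and without both AC CM replicates 2 and 3 (adjusted p = 0.383). Vcl and Ilk averaged 187 ± 1.05 and 101 ± 0.470 CPM after AC CM and 195 ± 4.36 and 113 ± 8.98 CPM after C CM. Neither passed (-0.06 and -0.16, adjusted p = 0.51 and 0.141), although for both every AC CM library was below every C CM library. Vcl shares 2090 exon bases with Ap3m1 and Ilk shares 2106 with Taf10, both on the opposite strand, so their reads may not be separable.

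Partners of the integrins were read from lists of genes. For comparison with each list, 26.5% of all genes tested were called, 13.3% in each direction. Among genes with at least 1 CPM in 3 samples, 31.9% were called. Of 16 genes that bring talin to the integrin or hold it off, 4 rose, 2 fell and 10 did not pass, with a median log2 fold change of -0.07. Apbb1ip, whose product RIAM carries talin to the membrane, had 239, 249 and 259 CPM after AC CM and 143, 158 and 147 CPM after C CM. It rose by 0.74 (SE 0.07, adjusted p = 8.72e-05), with groups far apart. Rap1b, the small GTPase that RIAM binds, rose by 0.33 (adjusted p = 0.0036) and Flna, a filamin that competes with talin for beta tails, by 0.34 (adjusted p = 0.00275). Rasgrp2, an exchange factor for Rap1, fell by 0.47 (adjusted p = 0.0202), and Kank2, a talin-binding protein, fell by 0.30 (adjusted p = 0.0304).

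Among 29 kinases and scaffolds downstream of integrins, 9 rose, 6 fell and 14 did not pass (median 0.07). Elmo1, part of a Rac activator, had 138, 143 and 141 CPM after AC CM and 88.7, 97.1 and 86.4 CPM after C CM and rose by 0.63 (SE 0.07, adjusted p = 0.000227). Arhgef7, a Rac exchange factor, and Ptk2b, the focal adhesion kinase relative Pyk2, both rose by 0.42 (adjusted p = 0.00137 and 0.00268). Fgr, a Src family kinase of myeloid cells, had 9.40, 8.18 and 9.38 CPM after AC CM and 27.2, 21.5 and 24.5 CPM after C CM. Fgr fell by 1.44 (SE 0.12, adjusted p = 6.86e-05), with no overlap. Syk, the kinase that relays beta2 and beta3 signals, fell by 0.61 (adjusted p = 9.4e-05) to 270 ± 3.68 CPM after AC CM, against 413 ± 9.87 CPM after C CM. Arhgef6 fell by 0.70 (adjusted p = 0.000747).

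Of 20 genes of the PINCH and parvin complex and the actin link 2 rose, 4 fell and 14 did not pass (median 0.02). The called share of this list was close to the 26.5% of all genes tested. Lpxn, leupaxin, the paxillin relative of blood cells, had 319, 308 and 316 CPM after AC CM and 181, 200 and 196 CPM after C CM and rose by 0.71 (SE 0.06, adjusted p = 8.49e-05). Nexn, an actin-binding protein gene, rose by 0.46 (adjusted p = 0.0286). Parvg, the blood cell parvin, had 35.0, 29.6 and 30.8 CPM after AC CM and 64.5, 69.7 and 65.2 CPM after C CM and fell by 1.06 (SE 0.09, adjusted p = 5.11e-05). Sorbs3, which encodes vinexin, fell by 0.75 (adjusted p = 0.00161) and Zyx, zyxin, by 0.80 (adjusted p = 0.0182). Paxillin and leupaxin thus carried calls of opposite sign.

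Of 17 tested surface partners and traffic genes 5 rose, 2 fell and 10 did not pass (median 0.06). Arf6 and Rab11a, GTPases of integrin recycling, rose by 0.83 (adjusted p = 0.000537) and 0.50 (adjusted p = 0.0017), and Plaur, the urokinase receptor that sits beside integrins, by 0.67 (adjusted p = 0.00249). Gga3, a recycling adaptor, fell by 0.82 (adjusted p = 0.000102) and the tetraspanin gene Cd82 by 0.68 (adjusted p = 0.000533).

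Of 27 tested ligand and counter-receptor genes 1 rose, 9 fell and 17 did not pass (median -0.16). Spp1, osteopontin, a ligand of alphav, alpha9 and alpha4 integrins, rose by 0.31 (SE 0.08, adjusted p = 0.015) to 2021 ± 69.0 CPM after AC CM, against 1625 ± 154 CPM after C CM. Mfge8, which bridges apoptotic cells to alphav-beta3 and alphav-beta5, had 90.5, 75.8 and 87.8 CPM after AC CM and 215, 184 and 177 CPM after C CM. It fell 2.27-fold (adjusted p = 5.75e-05), beside the falls of Itgb3 and Itgb5 and the rise of Itgav. Vcam1, the counter-receptor of VLA-4, fell by 1.29 (adjusted p = 6.5e-05) and the basement membrane gene Col4a1 by 1.02 (adjusted p = 8.26e-05). Icam1, counter-receptor of LFA-1 and Mac-1 and chosen for mention after its values were seen, fell by 0.88 (adjusted p = 8.39e-05). Fn1, fibronectin, did not pass at 853 ± 50.5 CPM after AC CM and 951 ± 29.6 CPM after C CM (adjusted p = 0.102). The fibrinogen gene Fga, a liver product and Mac-1 ligand, had 1.26, 19.0 and 53.3 CPM after AC CM and 1.07, 0 and 0.0597 CPM after C CM. It was highest in the 2 libraries with the most hepatocyte transcripts and did not pass (adjusted p = 0.114). The part of hepatocyte RNA in these ligand levels was not tested.

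**Figure D5:**
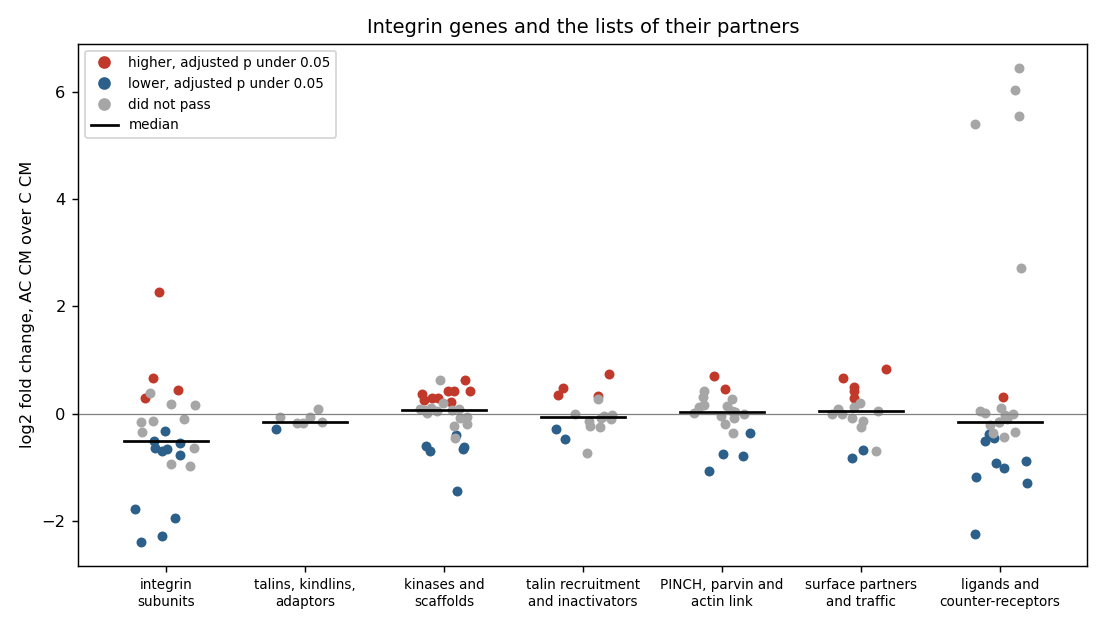
Log2 fold change, AC CM over C CM, of each tested gene among the integrin subunits, the talin, kindlin and adaptor genes and the 5 lists of partners, with the median of each set as a bar and colour by call. Subunits spread furthest among the called genes, with values of -2.39 to 2.26, and the highest grey points among the ligands are genes such as Fga that did not pass.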

How the data were processed

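RNA of 6 mouse macrophage samples, 3 given AC CM and 3 given C CM, went through an mRNA library kit and Illumina sequencing, per the labels' protocols, and samples were grouped by the treatment in each title. The count columns deposited by the authors hold raw whole numbers, whose totals differ between libraries. The signal columns that the authors deposited are each library's counts divided by a constant, and were not tested. The log2 fold changes and adjusted p-values of the authors' deposited table were only read. Per the submitters' processing notes, the tools were R 3.4.3, DESeq2 1.18.1, HISAT2 2.1.0 and fastp 0.17.1, in unstated roles. For the counter, strand use, build and annotation, nothing is given in the sources used here. Gene positions were copied from that table, and 31 of the 34 genes had the same ones in GENCODE release M21 (GRCm38), whose exons gave the lengths.

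In R 4.3.3, edgeR 4.0.16 was run with filterByExpr, TMM and its quasi-likelihood test (robust), and the model held only the group. An SE is the log2 fold change, before edgeR's shrinkage and without its sign, over the root of the F statistic. Intervals are 95% and centred on the reported log2 fold change. Other scalings and filters, DESeq2 1.42.0, limma-voom (limma 3.58.1), a replicate block, counts divided by 4 and libraries left out were tried. Counts of 4 and 8 were more common than 3 and 7 (in 696 to 814 genes against 394 to 446, and 374 to 415 against 174 to 212), so totals may overstate independent fragments. The procedure was tested on simulated data.

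The genes, lists and promoters were chosen with earlier results of these data known. All 34 genes are named, and from each list of partners the 3 smallest p-values among those called in each direction, besides Fn1, Icam1, Fga and the marker genes, which were named after their values were seen. Where a symbol repeats, the entry with most counts was used. The listed names Ccn2 and Tf were matched to the table's Ctgf and Trf. Figures were drawn with matplotlib 3.10.9, and tables made with numpy 2.4.6 and pandas 2.3.3 under Python 3.11.15.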

Additional observations from a re-analysis of the deposited data

How the results depend on the processing

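Of the 34 genes 4 were higher and 12 lower under each of RLE, upper quartile and library size scaling, DESeq2, limma-voom, no filter, a filter at 1 CPM, the 20 most counted genes left out and counts divided by 4, while the calls over all genes numbered 4389 to 5516. With 1 library left out, 3 to 5 of the genes were higher and 10 to 12 lower, and 3158 to 5023 genes were called in all, fewest without AC CM replicate 3. Without both AC CM replicates 2 and 3, 1274 genes were called, with 2 of these genes higher and 8 lower, in a fit where the lone AC CM library is assumed to vary like the others. Signs turned only for genes that did not pass. Fermt2 was at -0.1032 to 0.0007 with 1 library left out, highest without C CM replicate 3. Itgae was at -0.0809 by limma-voom, -0.0479 with the replicate block and -0.6679 to 0.549 with 1 library left out, lowest without AC CM replicate 3. Itgb4 was at -0.0368 to 0.2909 with 1 library left out, lowest without AC CM replicate 2. In the absence of both AC CM replicates 2 and 3, Itga10 was at -0.0952, Itgae at -0.3584 and Itgb4 at -0.1078. The cause was not tested.

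Samples of the 2 groups that share a replicate number did not deviate together, with correlations of -0.12, -0.03 and -0.01 for numbers 1, 2 and 3. With the number as a replicate block, 4397 genes were called in all, and 4 of these genes were higher and 12 lower. Depth limits Itgae, Itgb4, Itgb6, Itgb8 and Fermt1, which lay under 1 CPM in every library.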
